A study of Mus musculus with 6 samples.

Results

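The genes examined were those of the cytosolic ribosomal proteins. Members were the protein-coding genes of GENCODE M21 whose symbol begins with Rpl or Rps and a digit, together with Rpsa, Rplp0, Rplp1 and Rplp2. Symbols beginning with Rps6k, which are kinases, and symbols containing -ps, which mark pseudogenes, were left out. The rule gave 86 of the 53458 genes with a transcript in the files, of which 43 encode proteins of the large (60S) subunit, 31 proteins of the small (40S) subunit, and 3 the acidic P-stalk. Another 7 are paralogs or retrogene copies of those genes (Rpl3l, Rpl10l, Rpl22l1, Rpl36al, Rpl39l, Rps27l and Rps27rt), and 2 share only the name: Rpl7l1 acts in ribosome assembly and Rps19bp1 encodes a partner of Rps19. The rule misses genes with other names, such as Fau, which encodes a 40S protein, and Rack1, whose protein is held on the 40S subunit.

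Ribosomal proteins assemble with ribosomal RNA into the particles that translate messenger RNA, and their genes are among the most highly transcribed in dividing cells. Their mRNAs typically begin with a run of pyrimidines, the 5′ terminal oligopyrimidine (TOP) tract, through which mTOR signalling and the RNA-binding protein Larp1 control their translation as a group. In blood, inherited loss of 1 copy of genes such as Rps19, Rpl5 or Rpl11 causes Diamond-Blackfan anaemia, and loss of RPS14 contributes to the anaemia of myelodysplastic syndrome with deletion of 5q.

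The samples were acute myeloid leukemia (AML) blasts from 6 mice with 1 RNA-seq library each: 3 Cebpa-/p30 Tet2+/+ mice (numbered 19, 23 and 24) and 3 Cebpa-/p30 Tet2-/- mice (5, 7 and 8), with the strain given as C57BL/6 in the labels. By the study's methods the donors were C57BL/6J and the recipients C57BL/6J.SJL. In both genotypes one Cebpa allele encodes just the short p30 isoform, and the floxed other allele was deleted by Mx1-Cre after Poly(I)-Poly(C) injection. In the Tet2-/- mice the same Cre deleted floxed Tet2, which encodes a dioxygenase that oxidises 5-methylcytosine. Donor bone marrow had been transplanted into lethally irradiated female recipients, which were sampled when moribund, and frozen marrow was thawed and sorted for living CD45.2+ cells lacking CD3, B220 and Ter119. Mx1-Cre is induced by interferon and is not limited to blood cells, although the sort kept cells of donor origin. The age at sampling is not given in the labels. The comparison asks how loss of TET2 alters gene expression in Cebpa-mutant AML.

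Estimated reads per library ranged from 13036643 (Tet2+/+ mouse 24) to 32855343 (Tet2-/- mouse 5). Tet2 itself was at 73.6, 79.5 and 98.4 CPM (reads per 1000000 reads, with libraries scaled by the TMM method) in Tet2+/+ mice and at 111, 79.4 and 96.7 CPM in Tet2-/- mice, so the gene's summed reads did not separate the genotypes. The sources used here do not say which exons the floxed allele loses, and a sum over all exons does not check the deletion. The 12 blast markers (such as Mpo and Elane, granule enzymes of myeloid progenitors) were all measured and summed to between 7648 and 9457 CPM in Tet2+/+ and between 7106 and 9420 CPM in Tet2-/- mice. They did not move together: 1 was higher and 3 lower without overlap, beside 8.24% and 7.71% of the genes with at least 1 CPM, with 0 called (edgeR). Mpo was among the lower (4527, 4110 and 4230 against 3394, 3091 and 2662 CPM), whereas Elane was at 974, 152 and 296 against 1333, 1008 and 913 CPM. Mature neutrophil markers were also abundant and uneven, with sums of 11655 to 58704 CPM in Tet2+/+ and 25868 to 122121 CPM in Tet2-/- mice.

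Of the 86 genes, 84 passed the filter on low counts (at least 10 normalized counts summed over the mice) and were tested among 22170 genes. The other 2, Rpl10l and Rpl39l, paralogs known from testis, had no read in any library, which allows at most 0.0949 CPM in the deepest library and 0.211 CPM in the shallowest, counting error only. No ribosomal protein gene differed between genotypes at an adjusted p under 0.05 (edgeR quasi-likelihood test, Benjamini-Hochberg over all genes tested). Among all genes tested, 0% were called higher in Tet2-/- blasts and 0.0451% lower. DESeq2, run on the same counts, also called 0 members in either direction, beside 59 of the 22170 genes higher and 326 lower. At an unadjusted p under 0.05, 0 members were higher, against 3.0% of all genes, and 1 was lower, against 5.12% of all genes. That gene was Rpl34. The smallest adjusted p among the members was 0.549.

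The median log2 fold change (Tet2-/- over Tet2+/+) of the 84 members was 0.10, beside 0.00 for all genes tested, with 61 members above 0 and 23 below. In 75 members the estimate lay within 0.25 of 0, and in 83 within 0.5, while the median standard error was 0.32. The 43 large-subunit genes had a median of 0.09 (33 above 0), the 31 small-subunit genes 0.10 (21 above 0) and the 3 P-stalk genes 0.19 (3 above 0).

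**Figure D1:**
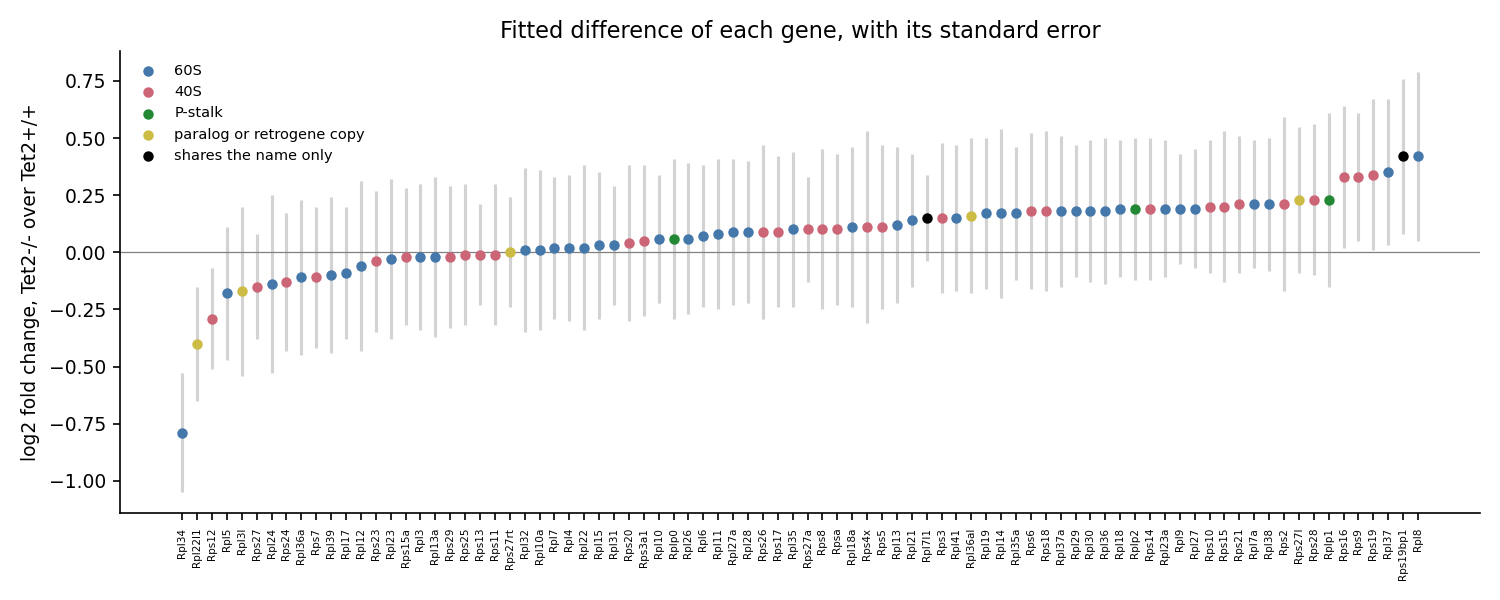
Fitted log2 fold change of each of the 84 tested genes (vertical axis, Tet2-/- over Tet2+/+), ordered by value along the horizontal axis and coloured by the class of the protein, with bars of 1 standard error. All but 1 gene lie within 0.5 of 0, and Rpl34 sits apart at -0.79.

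The family moved between mice far more than between genotypes, and it moved together. Members took 3.89%, 4.69% and 3.76% of all reads in Tet2+/+ mice 19, 23 and 24, and 4.98%, 2.04% and 4.89% in Tet2-/- mice 5, 7 and 8. Mice 5 and 8 were thus the highest of the 6 and mouse 7 by far the lowest, so that the genotypes overlapped. The means were 4.11% ± 0.502 (SD, n = 3) and 3.97% ± 1.67 (SD, n = 3), a difference of -0.142 percentage points (exact two-sided permutation p = 1.0). With 3 mice against 3, the smallest p such a test can give is 0.10.

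The summed level of the tested members was 39116, 42402 and 34494 CPM in Tet2+/+ mice, and 51784, 23552 and 49031 CPM in Tet2-/- mice 5, 7 and 8. Per length, members held 7.53%, 9.05% and 7.46% of TPM (transcripts per 1000000, a unit corrected for transcript length) in Tet2+/+ and 9.30%, 4.34% and 9.46% in Tet2-/- mice, in much the same order. In a bulk library, fewer cells of a type and less RNA per cell cannot be told apart.

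Mouse 7 was the lowest of the 6 mice for 81 of the 84 members (96.4%), beside 30.7% of the 13839 genes that averaged 1 CPM or more. The 3 others were Rpl9 and Rps19bp1, lowest in mouse 24, and Rpl3l, lowest in mouse 8. Relative to the mean of the other 5 mice, the median member was at 0.543 times its level in mouse 7 (log2 difference -0.88, range -1.34 to 0.21). Mouse 7 was singled out after its values were seen. The lowest relative values belonged to Rpl24 (-1.34) and Rps4x (-1.31). Rpl24, however, held 35.8% of the reads on it and its near-identical copies (described below) in mouse 7, and 47.6% to 64.4% in the others. With those copies added it was at 206 CPM in mouse 7 and 294 to 411 CPM in the others. Members whose level in mouse 7 was nearest to the others were Rpl3l (0.21), Rpl7l1 (-0.27), Rps19bp1 (-0.33), Rpl9 (-0.38), Rps27a (-0.39) and Rps9 (-0.40). The first 3 are the muscle paralog of Rpl3 and the members that share only a name with the family, and Rps27a encodes a fusion of ubiquitin with a 40S protein.

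**Figure D2:**
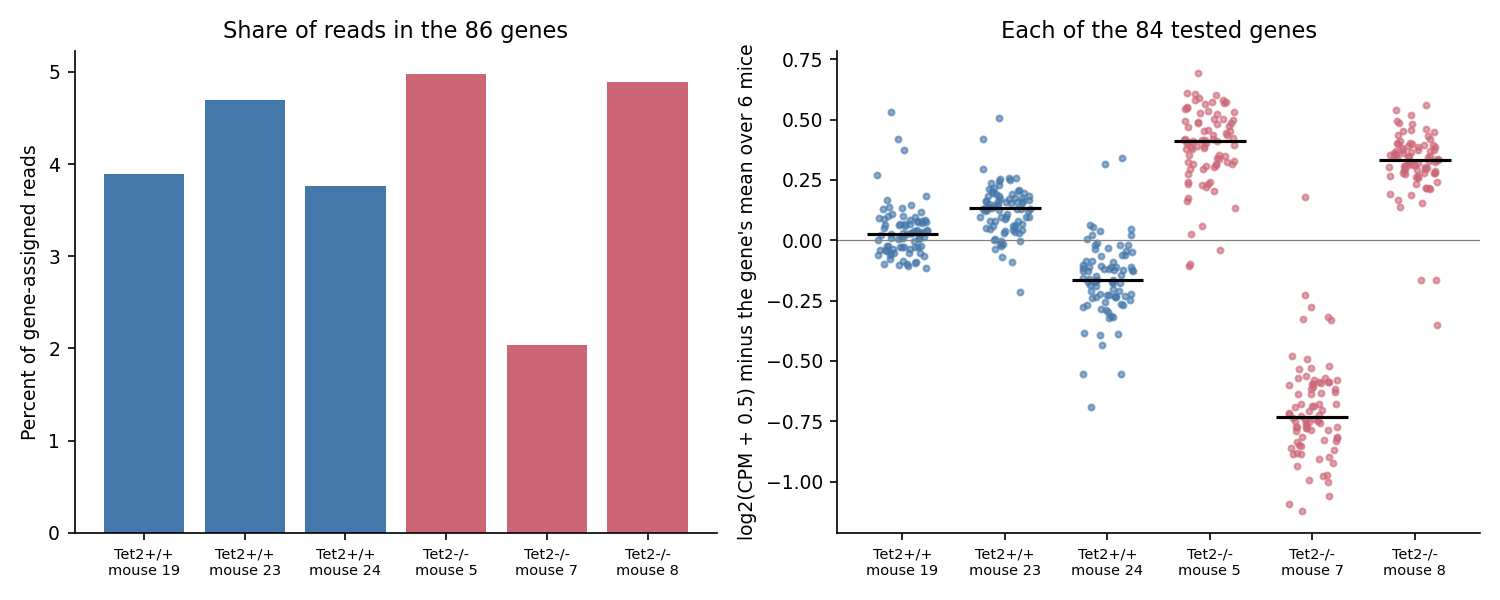
Left, percent of gene-assigned reads in the 86 genes for each mouse. Right, each point is 1 of the 84 tested genes, plotted as log2(CPM + 0.5) minus that gene's mean over the 6 mice, with the median as a line. The medians are 0.03, 0.13 and -0.16 in Tet2+/+ mice and 0.41, -0.73 and 0.33 in Tet2-/- mice 5, 7 and 8.

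Within the Tet2+/+ mice the median member had an SD of 0.16 on the log2 scale, beside 0.24 for genes with at least 1 CPM. Within the Tet2-/- mice these values were 0.63 and 0.37. Once each mouse's family median was subtracted, the median SD over all 6 mice was 0.11, and 69 of the 84 members had an SD under 0.2. The genes thus kept nearly fixed proportions to each other while their common level varied.

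Fits without mouse 7 gave another picture. The median log2 fold change was then 0.38, with 80 members above 0. At an unadjusted p under 0.05 there were 33 members higher, beside 4.71% of all genes, and 73 members were higher without overlap in the remaining mice, beside 20.1% of the genes with at least 1 CPM. None of the 84 passed the adjusted threshold in that fit (smallest adjusted p = 0.445 in edgeR), and the median was -0.12 without mouse 5 and -0.05 without mouse 8. Examples from the fit without mouse 7 were Rpl8 (log2 fold change 0.72, adjusted p = 0.484), Rpl37 (0.63, adjusted p = 0.471) and Rps19 (0.62, adjusted p = 0.484).

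With all 6 mice, 0 members were higher in Tet2-/- without overlap, beside 8.24% of the genes with at least 1 CPM, and 1 was lower, beside 7.71%. Mouse 7 lay below the Tet2+/+ range in 81 members, so that none of these could be higher without overlap.

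Many other genes of the translation machinery were also low in mouse 7. Rack1, the 40S scaffold, was at 1029, 1190 and 995 CPM in Tet2+/+ and at 1340, 561 and 1328 CPM in Tet2-/- mice. Fau, which encodes a ubiquitin-like fusion of a 40S protein, was an exception, with mouse 7 (284 CPM) level with the highest Tet2+/+ mouse (268, 284 and 241 CPM).

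The 18 translation factors and other genes whose mRNAs carry TOP tracts centred on a log2 fold change of 0.02 (median), with 0 called in either direction, and 16 of the 18 were lowest in mouse 7. Eef1a1, the elongation factor that brings aminoacyl-tRNA to the ribosome, was at 6020, 7424 and 6166 CPM in Tet2+/+ and at 7635, 3090 and 8001 CPM in Tet2-/- mice. Eef2, which moves the ribosome along the mRNA, was at 1908, 2323 and 1910 CPM against 2517, 1224 and 2655 CPM. In each, mouse 7 was the low value and mice 5 and 8 the high ones.

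The 59 ribosome biogenesis genes had a median of -0.01, with 0 called, and 52 were lowest in mouse 7, where their median log2 deviation was -0.69. Npm1, a nucleolar chaperone of ribosome assembly, was at 489, 452 and 414 CPM in Tet2+/+ and 578, 176 and 536 CPM in Tet2-/- mice. Of the 22 initiation factors, 0 were called and 11 were lowest in mouse 7, with a median deviation there of -0.27, although their summed level in mouse 7 (5925 CPM) was above that in mouse 24 (5255 CPM). The 20 tested regulators of the family showed no such dip (median deviation in mouse 7 of 0.05, 4 of 20 lowest there). Among these, Larp1 was at 165, 166 and 139 CPM against 196, 114 and 187 CPM.

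Myc, a transcription factor that drives ribosome synthesis, was at 116, 153 and 118 CPM in Tet2+/+ and at 125, 52.1 and 92.8 CPM in Tet2-/- mice (log2 fold change -0.52, edgeR adjusted p = 0.722). Mouse 7 was the low value here too. The mitochondrial ribosomal proteins, which serve a separate ribosome, were less low in mouse 7, with a median deviation there of -0.27. Over their 78 genes the median log2 fold change was 0.17, 63 were above 0 and 0 were called (edgeR). At an unadjusted p under 0.05, 6 were higher, beside 3.0% of all genes, and 0 lower. Without overlap, 13 were higher, beside 8.24% of genes with at least 1 CPM, and 1 was lower, beside 7.71%. The 10 small nucleolar RNA host genes had a median of -0.34, with 9 below 0 and 0 called.

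Neutrophil markers moved with the low level in mouse 7. All 10 were measured, none was at 0, and their sum was 122121 CPM in mouse 7 against 11655 to 66123 CPM in the other mice. Ngp, a granule protein gene, was at 22916 CPM there, against 11633, 1877 and 7485 CPM in Tet2+/+ mice and 12655 and 4913 CPM in mice 5 and 8. Mouse 5 had the highest share of ribosomal protein reads and the second-highest neutrophil sum. The sums were 11655 and 25868 CPM in mice 23 and 8, which had 4.69% and 4.89% of reads in members. Mice 19 and 24 had sums of 58704 and 42878 CPM, with 3.89% and 3.76% of reads in members. The 9 monocyte markers, all measured, summed to 1869 to 3722 CPM in Tet2+/+ and 2535 to 5870 CPM in Tet2-/- mice, with a median deviation of -1.60 in mouse 7. The 10 most abundant genes took 12.4% of reads in mouse 7 and 5.18% to 9.83% in the others. The part of cell makeup and of these abundant genes in the family's level was not tested.

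**Figure D3:**
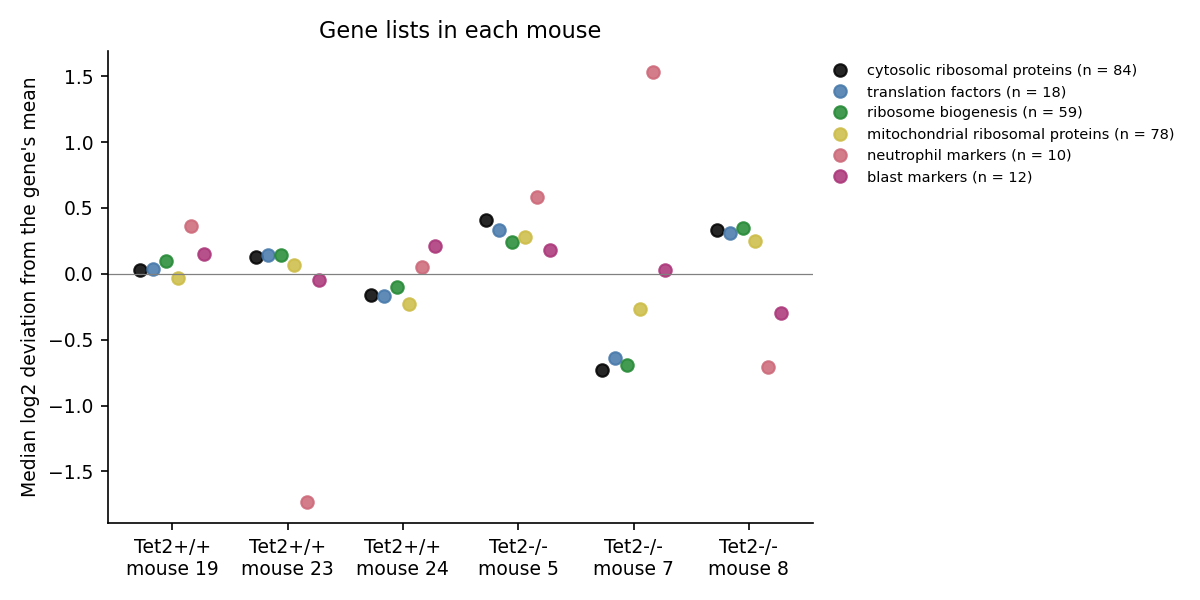
Median log2 deviation of each gene list from the genes' means over 6 mice (vertical axis), by mouse. Ribosomal proteins, translation factors and biogenesis genes lie together in each mouse and are at -0.73, -0.64 and -0.69 in mouse 7, where neutrophil markers are at 1.53.

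Rpl34, a protein of the large subunit, was the member that separated the genotypes. Its level was 374, 346 and 322 CPM in Tet2+/+ and 242, 129 and 231 CPM in Tet2-/- mice, with no overlap. The log2 fold change was -0.79 (SE 0.26, edgeR unadjusted p = 0.0196, adjusted p = 0.549, lower in 3 of 3 mice). The gene lies on the minus strand at chr3:130726831-130730398 of GRCm38, and its end is 2733281 bases from the start of Tet2 at chr3:133463679-133545139. No other member lies within 10 Mb of Tet2.

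Rpl34-ps1 is a processed pseudogene of Rpl34, an intronless copy of its mRNA, at chr6:71124610-71124963 on the plus strand. Estimated reads on it numbered 165, 318 and 109 in Tet2+/+ and 7290, 1757 and 3872 in Tet2-/- mice. In CPM it was at 9.87, 17.0 and 7.68 against 231, 113 and 210.1, and every Tet2-/- mouse lay far above every Tet2+/+ mouse. Its log2 fold change was 4.0 (SE 0.42), with an adjusted p of 0.0501 in edgeR and 5.36e-19 in DESeq2.

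The 354 bases of Rpl34-ps1 align without a gap to Rpl34-202, the transcript that held 89.5% to 94.6% of the gene's reads, beginning at the ATG after its first 90 bases. Aligned bases were 99.4% identical, with 2 differences. Counting from the A of that ATG, these are T132C and C318G, the base of Rpl34 first and that of the pseudogene last. A further 126 bases of Rpl34-202, 90 before and 36 after the aligned stretch, lie outside the pseudogene. The stretches around both differences are shown because within the aligned 354 bases the 2 sequences differ nowhere else. Capitals mark the base that differs, and the pseudogene's windows lie at chr6:71124727-71124756 and chr6:71124913-71124942 (GRCm38, plus strand).
Rpl34, bases 118 to 147: aaagcacctaaatcTgcatgtggcgtgtgc
Rpl34-ps1, bases 118 to 147: aaagcacctaaatcCgcatgtggcgtgtgc
Rpl34, bases 304 to 333: atcgttgtgaaagtCttgaaggcacaagca
Rpl34-ps1, bases 304 to 333: atcgttgtgaaagtGttgaaggcacaagca

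Of the reads on Rpl34 and its 5 near-identical copies together, Rpl34 held 97.4%, 95.2% and 97.6% in Tet2+/+ mice, and 51.1%, 53.2% and 52.3% in Tet2-/- mice. The share was thus almost the same within each genotype, mouse 7 included, and differed by -44.5 percentage points between them (exact two-sided permutation p = 0.10, the smallest possible). Summed with its copies, Rpl34 was at 384, 364 and 329 CPM against 474, 242 and 443 CPM, a log2 fold change of 0.11 (SE 0.28, edgeR adjusted p = 0.947). The lower level of Rpl34 therefore did not remain once the copies were added. The deposited estimates hold no base calls, and whether the genotypes differ in sequence at Rpl34 was not tested.

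**Figure D4:**
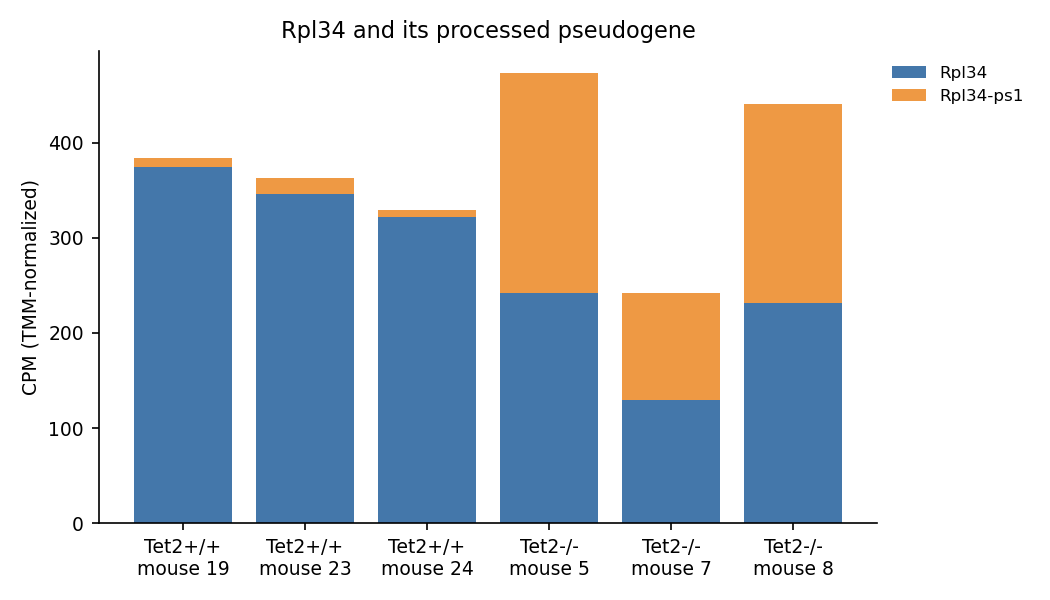
TMM-normalized CPM of Rpl34 (blue) and Rpl34-ps1 (orange), stacked, in each mouse. The pseudogene takes 113 to 231 CPM in Tet2-/- mice and at most 17.0 CPM in Tet2+/+ mice.

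Near-identical copies limit other members as well. Of the 84, 80 had at least 1 copy outside the family with 95% identity over 50% of the shorter transcript, and of the 622 copies 592 were pseudogenes. In 35 of those 80 members at least 95% of the reads stayed on the gene, but 21 had over 50% of them on copies. Rpl5, which binds 5S RNA, held 2.56% of the reads on it and its copies on average, Rps12 3.63%, Rpl12 5.05% and Rpl27 10.5%. Their own levels are uncertain for that reason. Rps27 and Rps27rt, which share sequence, are likewise uncertain, at 72.8 and 254 CPM in mouse 5, for example.

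No other member's share moved as that of Rpl34 did. The next largest shift between genotypes was that of Rpl24, a protein of the large subunit, at -8.67 percentage points with overlapping mice. The largest shifts upward were those of Rpl23a (76.5%, 71.4% and 68.9% against 80.8%, 78.3% and 78.0%) and Rps6 (43.0%, 40.6% and 43.1% against 50.1%, 49.3% and 44.6%). Rps6 is the 40S protein that S6 kinases phosphorylate. Smaller downward shifts included those of Rps7 (-4.35 points), Rpl13 (-2.60 points) and Rpl23 (-1.74 points). With all copies added, 0 members were called in either direction, the smallest unadjusted p was 0.176 and the smallest adjusted p 0.739 (edgeR).

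Members with the highest fitted change, none of which passed the test, were Rpl8, Rps19bp1, Rpl37, Rps19 and Rps16. Rpl8, a core protein of the large subunit, was at 1116, 1097 and 744 CPM in Tet2+/+ and at 1636, 706 and 1612 CPM in Tet2-/- mice (log2 fold change 0.42, SE 0.37). Rps19 was at 621, 661 and 493 CPM against 978, 428 and 841 CPM (0.34, SE 0.33). Rpl37 was at 149, 142 and 107 CPM against 215, 96.0 and 195 CPM (0.35, SE 0.32). In all 3, mice 5 and 8 lay above the Tet2+/+ mice and mouse 7 below them. Rps16 (0.33) and Rps19bp1 (0.42) had estimates of similar size.

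After Rpl34, the lowest fitted changes were those of Rpl22l1 (-0.40, SE 0.25), Rps12 (-0.29, SE 0.22), Rpl5 (-0.18, SE 0.29) and Rpl3l (-0.17, SE 0.37). Rpl22l1 was at 83.5, 110.3 and 78.6 CPM in Tet2+/+ and at 71.9, 48.2 and 86.2 CPM in Tet2-/- mice. As in Rpl34, mouse 5, high for most of the family, lay below all Tet2+/+ mice together with mouse 7. Summed with its copies, Rps12 gave a log2 fold change of 0.05 (SE 0.31), and Rpl5 with its copies -0.06 (SE 0.34).

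Of the 21 members whose loss or mutation is linked to anaemia or leukemia, 0 were called, 16 were above 0 and the median was 0.08, and all 21 were lowest in mouse 7. Rps14 was at 542, 579.7 and 492 CPM in Tet2+/+ and 808, 359 and 679 CPM in Tet2-/- mice (0.19, SE 0.31). Rps15, mutated in chronic lymphocytic leukemia, was at 514, 537 and 412 CPM against 733, 316 and 634 CPM (0.20, SE 0.33). Rpl11, which with Rpl5 binds MDM2, was at 226, 240.1 and 177 CPM against 276, 123 and 281 CPM (0.08, SE 0.33). Rpl10, mutated in T-cell leukemia, was at 761, 900 and 762 CPM against 1002, 544 and 982 CPM (0.06, SE 0.28). Rpsa, a 40S protein also known as the laminin receptor, was at 1661, 1836 and 1546 CPM against 2302, 1029 and 2079 CPM (0.10, SE 0.33). In each of these, mice 5 and 8 were the highest and mouse 7 the lowest.

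Scaling the libraries to the members' own reads removed the common shift. On that scale 9 members were higher without overlap, beside 1.87% of the genes with at least 1 CPM on it, and 12 were lower, beside 6.73%. The scaling centres the members and not the other genes, so these shares are given side by side and not read against each other. Among the higher were Rps19 (617, 605 and 555 scaled CPM against 733, 706 and 666) and Rpl8 (1108, 1005 and 837 against 1226, 1164 and 1276). Among the lower were Rpl34 (371, 317 and 362 against 181, 212 and 183), Rps24 (802, 774 and 859.7 against 683, 733 and 680.1) and Rpl22l1 (82.9, 101 and 88.4 against 53.9, 79.5 and 68.3). None of the 84 passed the adjusted threshold on this scale (edgeR, adjusted p = 0.848 for Rpl34), with standard errors of 0.33 to 0.38 for the 5 genes named here except Rpl22l1 (0.32).

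Per length, the highest mean TPM belonged to Rpl13a (9172), Rps15a (6431), Rpl6 (2811), Rpl18 (2676) and Rpsa (2080), and the lowest among tested members to Rpl3l (1.67), Rps19bp1 (11.1), Rpl5 (17.6), Rpl12 (27.8) and Rps12 (48.0). In Rpl13a 80.5% and in Rps15a 97.2% of the TPM came from transcripts with an effective length under 100 bases, for which few reads give a large TPM. The same held for 73.1% in Rpl6 and 70.6% in Rpl18, so of the 5 highest only Rpsa (0.00%) had a level free of such transcripts. Of the reads of Rpsa, however, 98.7% to 99.1% were assigned to transcripts not annotated as protein coding. The 3 lowest members apart from Rpl3l and Rps19bp1 were those whose reads were mostly assigned to copies.

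Paralog use was compared as the paralog's percent of the pair's TPM, in 4 pairs with reads. Rpl22l1, which can take the place of Rpl22 in the ribosome, held 56.1%, 60.9% and 60.2% of the pair in Tet2+/+ and 44.8%, 57.9% and 49.7% in Tet2-/- mice, a difference of -8.28 points (exact two-sided permutation p = 0.20, Benjamini-Hochberg adjusted over the 4 pairs 0.400). It was -5.28 points without mouse 5 and -11.8 without mouse 7. Rps27l, a p53 target, held 11.9%, 11% and 9.91% against 14.8%, 11% and 14.8% (2.57 points, exact p = 0.300, adjusted 0.400). Rpl36al held 47.6%, 53.6% and 45.5% against 52.2%, 56.2% and 54.2% (5.28 points, exact p = 0.20, adjusted 0.400). Rpl3l, expressed in muscle, stayed between 0.116% and 0.378% of its pair in all mice (exact p = 1.0). On TPM the genotypes overlapped in every pair. Short transcripts carried 75.9% of the TPM of Rpl22l1 and 95.4% of that of Rps27, so these shares are not proportions of molecules. On estimated reads in place of TPM, Rps27l held 39.8%, 40.1% and 32.6% of its pair in Tet2+/+ and 47.3%, 40.5% and 43.8% in Tet2-/- mice, without overlap (6.40 points, exact p = 0.10, the smallest possible, not adjusted). The difference for Rpl22l1 was then -4.02 points (exact p = 0.30).

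The parents Rps27 and Rpl36a are themselves uncertain, since Rps27 shares sequence with Rps27rt and Rpl36a kept 33.6% of the reads on it and its copies. With copies added to both genes of a pair, and Rps27rt to Rps27, a comparison chosen after seeing the data, Rps27l held 12.3%, 11.6% and 8.89% of the reads against 13.1%, 11.2% and 14.1%. The genotypes then overlapped (1.90 points, exact p = 0.30). Rpl36al held 32.7%, 35.9% and 31.7% against 36.8%, 41.6% and 38.1%, with no overlap (5.38 points, exact p = 0.10, the smallest possible, not adjusted). Which pairs separated the genotypes thus changed with how copies were counted.

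**Figure D5:**
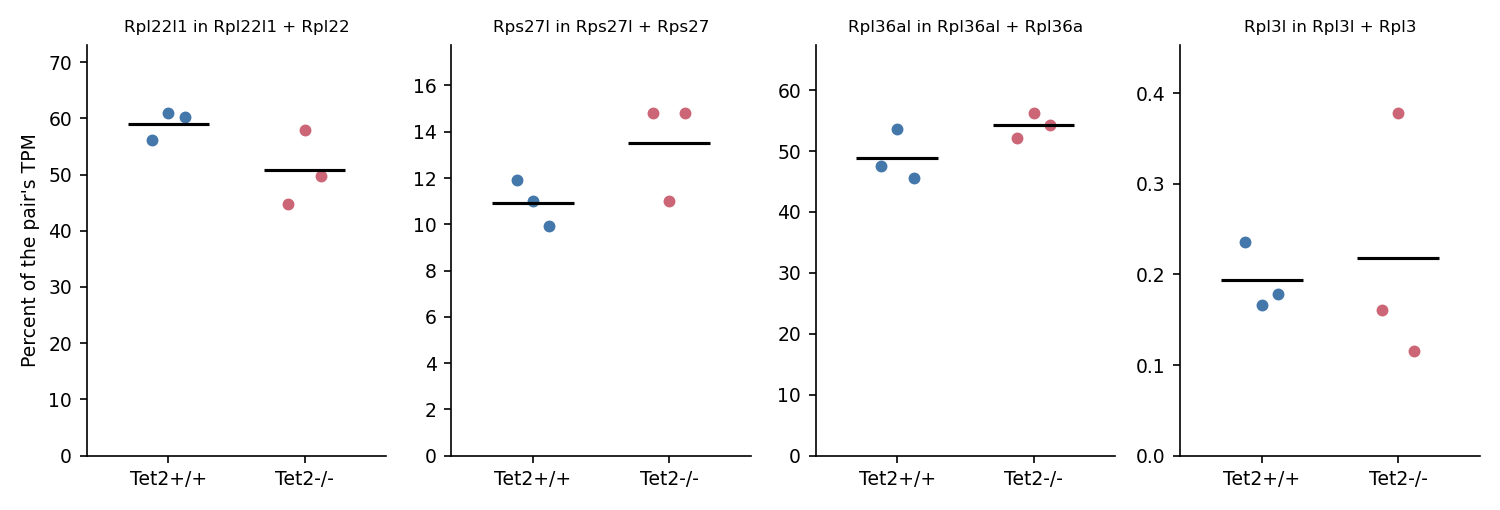
Percent of the pair's TPM on the paralog in each mouse (points) with the mean of 3 mice (line), for 4 pairs, each axis starting at 0. On this measure, mice of the genotypes overlap in every pair.

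The family has 498 quantified transcripts, of which 265 are not annotated as protein coding: 175 with retained introns, 65 processed transcripts and 25 targets of nonsense-mediated decay. These took 20.7%, 20.1% and 19.9% of member reads in Tet2+/+ and 19.3%, 21.1% and 19.5% in Tet2-/- mice, a difference of -0.248 percentage points (exact two-sided permutation p = 0.700). Mouse 7, low in total, was the highest here by a small margin. The difference was -0.830 points without mouse 7, -0.0206 without mouse 19, 0.0777 without mouse 5, 0.00752 without mouse 8 and -0.557 as a share of TPM, so that neither its sign nor its size was settled. In 11 of 73 members (15.1%) the share did not overlap between genotypes, beside 13.3% of protein-coding genes measured the same way. The largest of these was in Rps23, a protein of the decoding centre, at 50.7%, 45.9% and 50.7% against 36.1%, 36.6% and 38.0% (exact p = 0.10). Rpl37 had 30.7%, 30.9% and 32.3% against 20%, 25.8% and 24.6% (exact p = 0.10). Rps6 went the other way, with 1.18%, 2.16% and 2.42% against 6.17%, 10.9% and 3.11% (exact p = 0.10). These 3 were chosen after their values were seen. Near-identical copies took most of their reads: on average Rps23 kept 18.3%, Rpl37 36.7% and Rps6 45.1% of the reads on it and its copies. How that division of reads bears on their noncoding shares was not tested.

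Promoter sequences from RefSeq (GRCm38.p6) were at hand for 66 members. A run of at least 8 pyrimidines (C or T on the gene's strand) reaching within 10 bases of the annotated start was found in 29 of them, 43.9%, beside 16.1% of all 27025 genes in that table. The ETS-type motif CCGGAA, searched on both strands of the 300 bases, was present in 36 members (54.5%), beside 16.7% of all genes. Runs are shown, in capitals within 30 bases, for the 3 members with the longest ones and for Rps9, whose level in mouse 7 was among the nearest to the others. Coordinates are chr2:26910788-26910817 (plus), chr7:109519186-109519215 (plus), chr3:130730330-130730359 (minus) and chr7:3704024-3704053 (plus), in that order.
Rpl7a: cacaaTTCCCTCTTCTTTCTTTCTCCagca
Rpl27a: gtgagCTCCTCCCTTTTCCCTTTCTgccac
Rpl34: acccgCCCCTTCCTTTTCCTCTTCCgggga
Rps9: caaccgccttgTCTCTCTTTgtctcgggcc

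The median difference in mouse 7 was the same with and without such a run. Which start these blasts used was not tested, so run length does not show which mRNAs carry a TOP tract. Members with a run of at least 8 had a median log2 difference from the other mice of -0.88 (n = 29), those with a shorter run -0.88 (n = 35) and those with no promoter sequence in the table -0.88 (n = 20).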

How the data were processed

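RNA-seq libraries of sorted AML blasts from 6 mice were quantified by the authors with Salmon 0.12.0 against GRCm38/mm10, Ensembl release 94, and the deposited files give estimated counts (expected counts) and TPM for each transcript. TPM corrects for length, and estimated reads of near-identical copies are divided by the Salmon model. Transcripts were joined to GENCODE M21 genes, 112 of 136288 having no match (0.0307% to 0.0416% of reads), summed per gene and rounded. Genes with at least 10 normalized counts in total were fitted with edgeR 4.0.16 (TMM, quasi-likelihood test, Benjamini-Hochberg over all genes), with genotype as the sole term. Standard errors were taken as the log2 fold change over the square root of F. The study used DESeq2, which was run here (1.42.0) as an alternative. Shares were compared by exact permutation over mice. Copies were found with BLAST+ 2.17.0. The fit was tested on simulated data.

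Members and gene lists were chosen with earlier results of these data known. Members named with values were the 5 highest and 5 lowest fitted changes, the 5 highest and 5 lowest TPM, paralog pairs, and 8 genes known from blood disease; any other is named for the value given. Alternatives covered the tool, scaling, filter, copies and each mouse left out. Adding all near-identical copies, in the fit and in the paralog shares, and scaling to the members were chosen after seeing the data. Lists of B, plasma, T or NK, erythroid, megakaryocyte, basophil or mast, eosinophil and plasmacytoid markers were scored, with 0 genes called in any. Basophil or mast sums did not overlap (281, 368 and 356 CPM in Tet2+/+, 102, 56.1 and 25.6 CPM in Tet2-/- mice), while those of the other lists did. Erythroid markers summed to 146 CPM in mouse 19 and 6.13 to 15.3 CPM elsewhere. In mouse 7 the median log2 deviation ran from -1.21 (plasma) to 0.41 (T or NK). The mice are separate recipients, but cage, litter or batch is not given, and strand was not used. By the study's reporting summary, each donor had several recipients in the in vivo experiments. Whether mice of a genotype here shared a donor is not given.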

Additional observations from a re-analysis of the deposited data

How the results depend on the processing

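No member was called at an adjusted p under 0.05, higher or lower, in any of the 16 alternatives (smallest adjusted p 0.183, Rpl34 in DESeq2). The count of 1 member lower at an unadjusted p under 0.05 became 0 when genes were summed with their -ps pseudogenes or, an alternative chosen after seeing the data, with all near-identical transcripts, and so did the count of 1 lower without overlap. Without single mice the former ranged from 0 (without mouse 19) to 2 (without mouse 5) and the latter from 1 to 2 (2 without mouse 5 or mouse 8). On length-scaled counts 2 were lower without overlap, and with libraries scaled to the members 12 were lower and 9 higher. Members higher at an unadjusted p ranged from 0 to 33 and higher without overlap from 0 to 73 with 1 mouse left out, the highest both without mouse 7. The median log2 fold change of members was -0.05 with library size alone (-0.17 over all genes), -0.02 scaled to the members and from -0.12 to 0.38 with 1 mouse left out, so its sign depends on these choices. The difference in the members' share of reads was 0.824 percentage points without mouse 7 and -0.647 without mouse 5. The difference in noncoding transcript share ran from -0.830 to 0.0777 points with 1 mouse left out and was -0.557 on TPM, and that in the Rps27l share was 6.40 points on estimated reads against 2.57 on TPM and 1.90 on estimated reads with copies and Rps27rt added. Among 27 named members, 43 of 432 alternative estimates had the other sign and 4 moved by more than 1 standard error. Of these 27, 20 changed sign in at least 1 alternative and 7 in none. The cause was not tested. No paired analysis was possible because the groups share no replicate numbers. With 3 mice a group and a median standard error of 0.32, small differences were not detectable.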
